A study of Rattus norvegicus with 20 samples.

Results

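The genes described here belong to the YAP pathway, a list of 10 genes selected because 1 of them, Ctgf, was far higher in milk at the second collection than at the first. They were found by their symbols in a table of 16748 rat genes, of which 8 had a row: the kinase Lats2, the scaffold Amotl2, the coactivators Yap1 and Wwtr1, the transcription factor Tead1 and the target genes Ctgf, Cyr61 and Ankrd1. All 8 lay above the lowest value of the table in at least 1 library. Amotl1 and Tead4 are not analysed here. RNA was sequenced from the fat layer of milk of wild-type Sprague-Dawley rat dams, whose fat globules carry cytoplasm of the secretory cells. The dams had received lipopolysaccharide (LPS, a bacterial membrane component that triggers an innate immune response) or saline on postnatal day 10, and were milked 24 h later (P11) or 2 h later (P10) under light isoflurane after oxytocin. There were 5 libraries from LPS dams at P11, 5 from saline dams at P11, 5 from LPS dams at P10 and 5 from saline dams at P10. The 14 dams were 7 with LPS and 7 with saline, of which 3 and 3 were milked on both days, and the value columns name no dam. The selection rests on the difference between days, so values of P11 against P10 are a description without a test, whereas LPS against saline took no part in it.

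In the Hippo pathway, a kinase cascade that ends in LATS1 and LATS2 phosphorylates the coactivators YAP and TAZ (the product of Wwtr1) and keeps them in the cytoplasm. Unphosphorylated YAP and TAZ enter the nucleus and bind TEAD factors, through which they raise the transcription of CTGF, CYR61, ANKRD1, AMOTL2 and LATS2. AMOTL2 and LATS2 restrain the pathway in turn. In mammary tissue the pathway is known for its response to cell shape, attachment and stretch. RNA levels do not show how much YAP is phosphorylated or nuclear.

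Depth and library quality bear on every value. Values are given as normalised counts, recovered by inverting the deposited log2-scale values. Low values clustered at whole multiples of 0.554 to 2.228 normalised counts, which would correspond to 22200000 to 93200000 reads per library, an approximation. Library 2 of the P11 saline group stood apart from its group. Over all genes it correlated at 0.976 to 0.986 with the 10 P10 libraries and at 0.874 to 0.932 with the 9 other P11 libraries. The fold changes of the authors' deposited table for P11 matched the deposited values of 158 genes with an SD of 0.00227 (log2) without this library and of 0.179 with it. Results on P11 saline are therefore given with and without it.

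Because the TEAD factors are the DNA-binding partners of YAP, the upstream windows of the 3 genes with the largest differences that had one are shown. They are the 250 bases before the annotated start, from RefSeq on the rat assembly GRCr8, with the core of the TEAD motif, GGAATG, in capitals on either strand (CATTCC where it lies on the other strand). The Ctgf window is chr1:22624615-22624864 on the minus strand, the Cyr61 window chr2:237225690-237225939 on the minus strand, and the Amotl2 window chr8:112182376-112182625 on the plus strand.
Ctgf: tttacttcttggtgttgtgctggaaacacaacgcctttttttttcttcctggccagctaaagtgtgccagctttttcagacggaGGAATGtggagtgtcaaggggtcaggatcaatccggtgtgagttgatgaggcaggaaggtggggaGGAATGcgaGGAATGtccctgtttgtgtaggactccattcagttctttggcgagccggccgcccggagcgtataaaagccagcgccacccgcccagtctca
Cyr61: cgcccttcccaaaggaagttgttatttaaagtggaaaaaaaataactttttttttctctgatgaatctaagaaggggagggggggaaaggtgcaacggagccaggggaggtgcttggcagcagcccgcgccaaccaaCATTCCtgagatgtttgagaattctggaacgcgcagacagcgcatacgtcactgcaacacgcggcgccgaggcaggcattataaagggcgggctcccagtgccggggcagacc
Amotl2: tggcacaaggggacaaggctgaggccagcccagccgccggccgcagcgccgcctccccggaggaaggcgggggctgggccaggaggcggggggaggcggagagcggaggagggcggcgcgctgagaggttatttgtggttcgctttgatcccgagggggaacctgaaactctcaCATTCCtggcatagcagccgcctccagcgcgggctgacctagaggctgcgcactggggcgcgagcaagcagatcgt
The Ctgf window held 3 copies, at bases 166 to 161, 101 to 96 and 92 to 87 before the start. Cyr61 held 1 copy at 113 to 108, Amotl2 1 copy at 76 to 71, and Yap1 1 copy at 116 to 111. The window of Wwtr1 held none. Of the 8 genes, 5 had a RefSeq window. Among 33365 windows of 27370 genes, 12.1% held at least 1 copy, 0.905% at least 2 and 0.0809%, or 27 windows, at least 3. A search of both strands for an AP-1 motif (TGANTCA, in 6.35% of all windows) and the CArG box (1.5%) found none in these 5 windows. A SMAD motif (CAGACA, 17.3%) was found once, in Cyr61 at bases 80 to 75. No copies of different motifs overlapped in these windows.

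**Figure D1:**
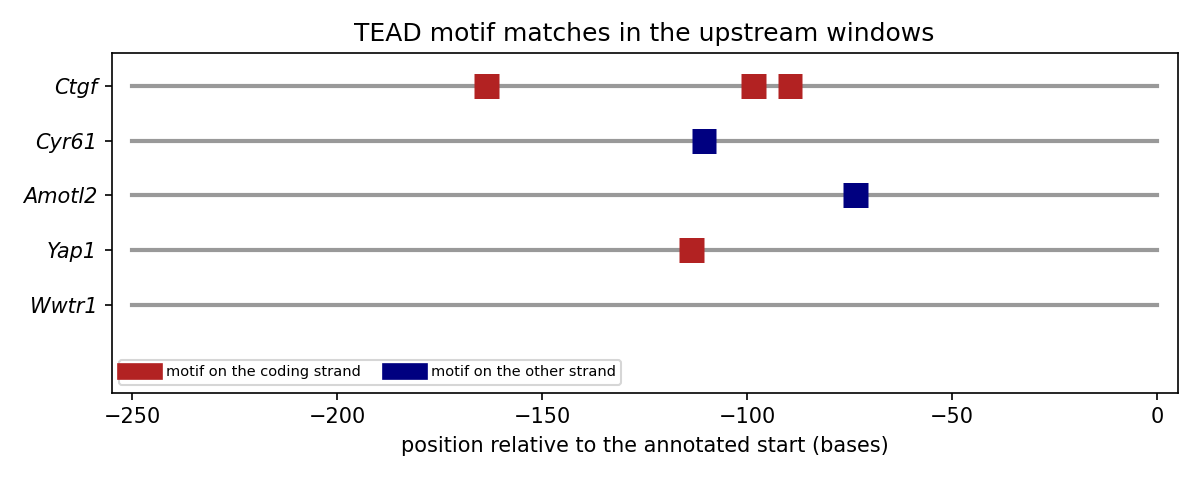
Positions of the TEAD motif core in the 250 bases before the annotated start of 5 genes, in bases relative to the start, with red marks for the coding strand and blue marks for the other strand. The Ctgf line carries 3 marks, Cyr61, Amotl2 and Yap1 carry 1 each and Wwtr1 carries none.

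Of all 8 genes, Ctgf differed most between days. Ctgf encodes connective tissue growth factor (CCN2), a secreted matricellular protein and the most widely used readout of YAP activity. It had 8409, 12089, 5691, 10269 and 18673 normalised counts in LPS libraries at P11 and 46.0, 36.4, 14.5, 20.6 and 91.5 in LPS libraries at P10. In saline libraries it had 8890, 154, 6366, 5364 and 12486 at P11, the 154 being library 2, and 27.8, 25.5, 45.7, 43.6 and 57.4 at P10. Every P11 library, library 2 included, lay above every P10 library of either treatment. The ratio of mean counts between days was 264 in LPS dams and 207 in saline dams without library 2, or 166 with it. On the log2 scale the differences were 6.59 ± 0.27 (SE) in LPS dams and 6.18 ± 0.29 in saline dams without library 2.

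Cyr61 encodes CCN1, a matricellular protein of the same family and another direct YAP target. Its values were 5909, 5660, 5963, 6951 and 6541 normalised counts in LPS libraries at P11, against 170, 145, 65.8, 34.8 and 192 at P10. In saline libraries they were 8172, 151, 6993, 7195 and 8192 at P11, against 65.2, 37.1, 133, 123 and 63.1 at P10. The days did not overlap in either treatment, although library 2 of P11 saline, at 151, was just above the highest saline P10 library (133) and inside the range of all 10 P10 libraries. The ratio of means was 51.1 in LPS dams and 90.5 in saline dams without library 2 (72.8 with it). At P11 the spread of Cyr61 between libraries was narrow, at 0.12 (SD, log2, n = 5) in LPS dams and 0.12 (n = 4) in saline dams without library 2, while that of Ctgf was 0.63 and 0.53.

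Ankrd1, which encodes a cardiac and muscle ankyrin repeat protein and is also a classical YAP target, was close to the limit of detection. It had 29.1, 32.7, 49.9, 10.6 and 42.3 normalised counts in LPS libraries at P11 and 32.6, 10.3, 33.5, 9.17 and 27.9 in saline libraries at P11. At P10 it was at 0 in 4 of 5 libraries of each treatment, with 2.17 in LPS library 3 and 0.665 in saline library 3. All P11 libraries, library 2 included, lay above all P10 libraries. Because the P10 values are of the size of single reads, no ratio is given.

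**Figure D2:**
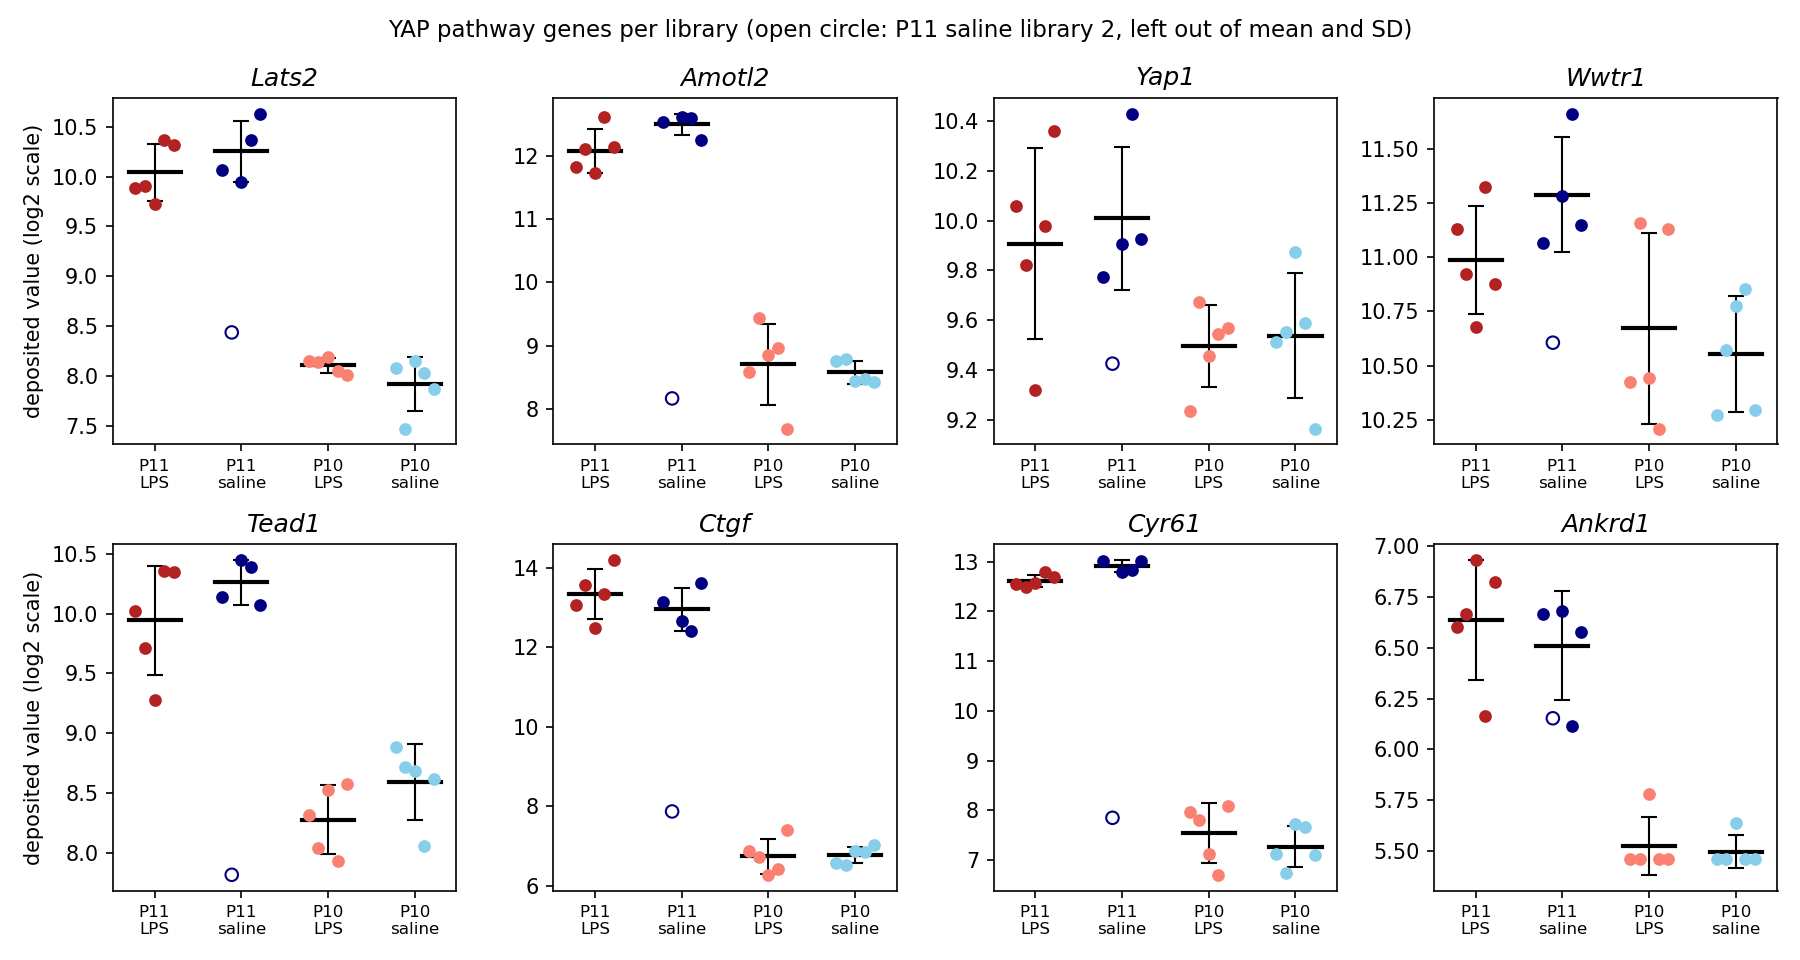
Deposited log2-scale values of the 8 genes in each library (points), by group, with the group mean and SD (lines). The open circle is library 2 of P11 saline, left out of its mean and SD. Apart from library 2, Ctgf, Cyr61, Amotl2, Lats2, Tead1 and Ankrd1 separate the days. The Yap1 groups overlap in both treatments and the Wwtr1 groups in LPS dams. Library 2 lies below the saline P10 points for Amotl2 and Tead1.

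The feedback genes were higher at P11 as well. Amotl2 encodes an angiomotin that binds YAP and holds it at junctions, and is itself a YAP target. It had 3536, 4327, 3322, 6210 and 4436 normalised counts in LPS libraries at P11, against 298, 605, 378, 415 and 127 at P10. In saline libraries it had 5877, 205, 6194, 6152 and 4832 at P11, against 348, 358, 265, 272 and 262 at P10. Apart from library 2, which lay below every saline P10 library, the days did not overlap, and the ratio of means was 12.0 in LPS dams and 19.1 in saline dams without library 2. With library 2 the saline ratio was 15.4.

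Lats2 encodes the kinase that phosphorylates YAP and TAZ. It had 863, 875, 760, 1236 and 1188 normalised counts in LPS libraries at P11 and 204, 200, 211, 185 and 176 in LPS libraries at P10. Saline libraries had 987, 264, 899, 1237 and 1499 at P11 and 190, 100, 202, 180 and 154 at P10. The days did not overlap in either treatment, and library 2, at 264, lay above all 10 P10 libraries but far below its own group. The ratio of means was 5.04 in LPS dams and 6.98 in saline dams without library 2, or 5.91 with it. Lats1, the paralogous kinase, took the opposite direction on the deposited scale, with means of 1901 in LPS and 2087 in saline libraries (without library 2) at P11 against 3303 and 3258 at P10. Under a scaling by each library's total count all 25 other Hippo genes, Lats1 among them, were higher at P11.

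Among the TEAD factors, Tead1 had 951, 754, 536, 1224 and 1217 normalised counts in LPS libraries at P11, against 237, 182, 286, 163 and 299 at P10. Its saline values were 1038, 146, 1309, 1257 and 988 at P11, against 390, 337, 327, 185 and 309 at P10. Without library 2, the only P11 library among or below the P10 values, the days did not overlap. The ratio of means was 4.01 in LPS dams and 3.71 in saline dams without library 2 (3.06 with it). Tead2, a second family member from the wider list of Hippo genes, differed far more, with 2129 ± 399 (SD) and 2166 ± 169 in LPS and saline libraries at P11 (saline without library 2) and 30.1 ± 7.31 and 33.6 ± 13 at P10. Its log2 differences were 4.48 in both treatments, and library 2 had 109. Tead3 averaged 423 in both treatments at P11, against 690 in LPS and 682 in saline libraries at P10.

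The coactivators themselves had the smallest differences on the deposited scale. Under scaling by total count, only Ankrd1, which was close to the limit of detection, differed less than they did. The pseudocount of 1 that this scaling adds before the log2 limits the difference of so low a gene. Yap1 had 981, 820, 553, 922 and 1229 normalised counts in LPS libraries at P11, against 517, 730, 617, 661 and 674 at P10. In saline libraries it had 789, 602, 875, 1293 and 887 at P11, against 645, 666, 851, 685 and 489 at P10. The days overlapped in both treatments, with ratios of means of 1.41 in LPS dams and 1.44 in saline dams without library 2, or 1.33 with it.

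Wwtr1 had 2156, 1854, 1554, 2481 and 1796 normalised counts in LPS libraries at P11 and 1287, 2200, 1303, 1097 and 2155 at P10. In saline libraries it had 2055, 1471, 2404, 3159 and 2187 at P11 and 1147, 1435, 1664, 1766 and 1169 at P10. The LPS groups overlapped, and the saline groups did not once library 2 was left out. The ratio of means was 1.22 in LPS dams and 1.71 in saline dams without library 2, or 1.57 with it.

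Counted over the list, 6 of 8 genes were higher at P11 without overlap in LPS dams, where 23.5% of 14022 genes were. In saline dams these were 7 of 8 without library 2, where 24.9% of all genes were, and 4 of 8 with it (Ctgf, Cyr61, Lats2 and Ankrd1), where 7.12% were. None was lower without overlap, against 18.3% of all genes in LPS dams and 20.2% in saline dams without library 2. The list was chosen on this contrast, and the counts describe it only. The median log2 difference of the 8 was 1.80 in LPS dams and 2.00 in saline dams without library 2, beside 0.10 and 0.07 over all genes.

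Scaling each library to its total count moved the median of all genes to 1.06 in LPS dams and 0.82 in saline dams without library 2. The 10 most abundant genes held 28.0% to 40.0% of all normalised counts in the P11 libraries other than library 2, 64.3% in library 2, and 61.6% to 78.4% in P10 libraries. All 8 genes were higher at P11 under every scaling. Relative to that shifted median, Ctgf, at 8.09 in LPS dams and 7.58 in saline dams, and Yap1, at 1.98 and 1.77, stood above it. Ankrd1 was at 1.13 and 0.96. This scaling adds a pseudocount of 1 before the log2, which also limits the low genes that enter the median of all genes. How far Yap1 stood above that median therefore cannot be read from this scaling. On the deposited scale Yap1 differed by 0.41 and 0.47, beside 0.10 and 0.07 over all genes. The scaled Ankrd1 values were at most 1.92. Whether Ankrd1 stood near the median cannot be read from this scaling either. As log2 of normalised count plus 1, Ankrd1 differed by 4.59 and 4.45, beside 0.25 and 0.14 over all genes.

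Other genes of the pathway lay in both directions on the deposited scale, in shares near those of all genes. Of 31 further Hippo genes listed, 25 were measured. In LPS dams 7 were higher and 6 lower at P11 without overlap, and in saline dams without library 2 there were 8 and 6. Over all genes 23.5% and 18.3% did so in LPS dams, and 24.9% and 20.2% in saline dams. Those with the largest differences upward were Tead2, Ajuba, a LIM protein that inhibits LATS, and Map4k4, a kinase that activates LATS. Ajuba had means of 201 in LPS and 140 in saline libraries at P11, against 1.98 and 3.15 at P10. Map4k4 had means of 8573 and 8870 at P11, against 1858 and 1827 at P10.

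By the mean of both treatments, the largest differences downward belonged to the core kinase Stk4 (MST1), the LATS activator Mob1b and the upstream kinase Taok2. Stk4 averaged 1340 ± 115 in LPS and 1573 ± 172 in saline libraries at P11, and 3169 ± 423 and 3001 ± 584 at P10. The log2 differences of Stk4, Mob1b and Taok2 were -1.18, -0.84 and -0.70 in LPS dams and -0.88, -0.92 and -0.75 in saline dams without library 2. Under scaling by total count those in LPS dams turned to 0.41, 0.73 and 0.91. The direction of these 3 genes therefore depended on the scaling.

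**Figure D3:**
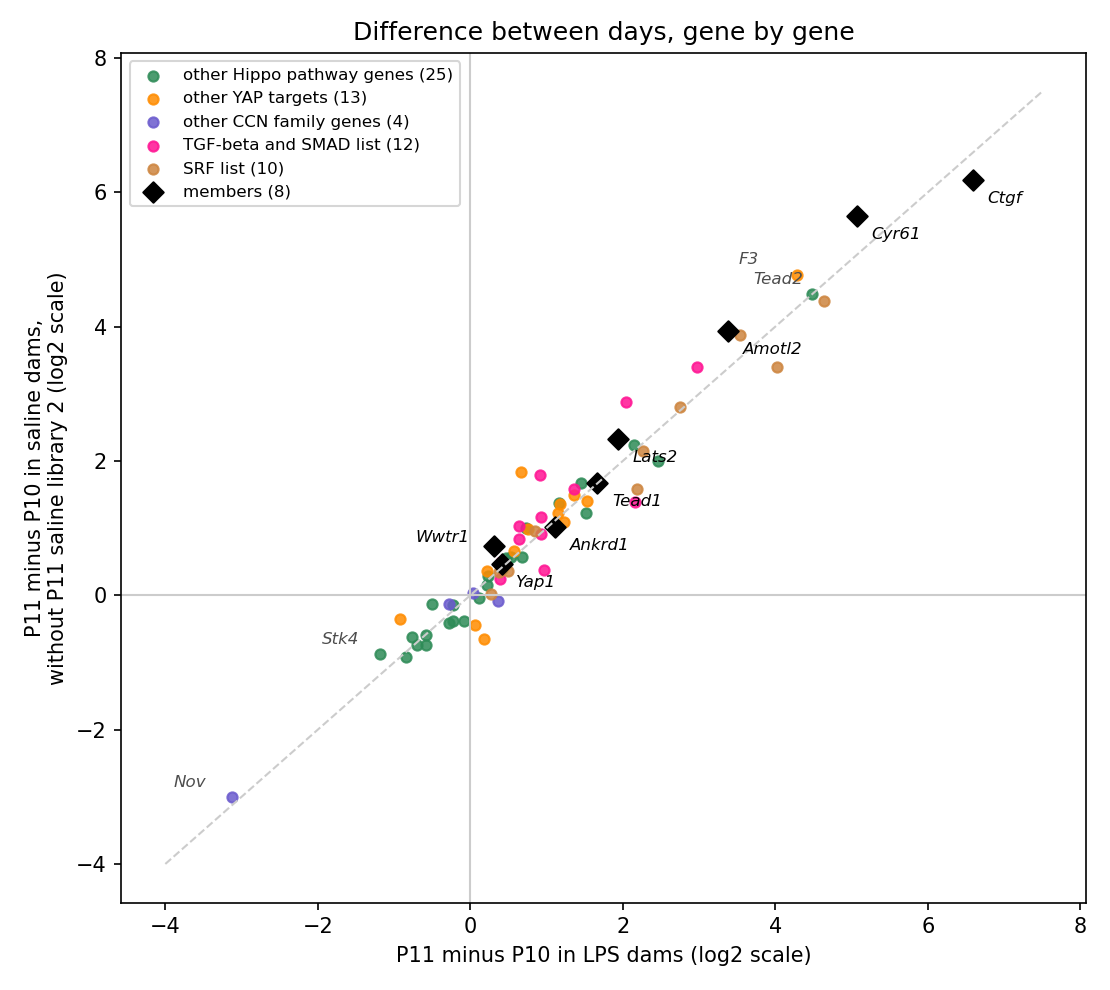
Difference between P11 and P10 on the log2 scale in LPS dams (horizontal) and in saline dams without library 2 of P11 (vertical), 1 point per gene, with the 8 YAP pathway genes as diamonds and 5 wider lists in colour. Ctgf and Cyr61 lie at the top right, and Nov, the CCN family gene that was lower, at the bottom left; the dashed line marks equal differences.

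Genes reported elsewhere as YAP targets in human cells were mostly higher at P11. Of 17 listed, 13 were measured, and 9 were higher at P11 without overlap in both treatments, with none lower, where 18.2% of all genes were higher and 15.4% lower in both. Their median log2 difference was 0.76 in LPS dams and 1.08 in saline dams without library 2. F3, the gene of tissue factor, averaged 10582 ± 5193 in LPS and 12316 ± 2742 in saline libraries at P11, against 480 ± 300.3 and 368 ± 85.8 at P10. Crim1, a transmembrane protein that binds growth factors, and Asap1, an ARF GTPase-activating protein, differed by 1.53 and 1.36 in LPS dams and by 1.4 and 1.5 in saline dams. Nuak2, a kinase, overlapped between days, with 192 ± 97.4 in LPS and 405 ± 279 in saline libraries at P11 and 454 ± 255 and 463 ± 108 at P10. Axl, a receptor tyrosine kinase, and Fjx1, a secreted protein, also overlapped.

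The CCN family did not move together. Nov encodes CCN3, a relative of Ctgf and Cyr61. It averaged 1120 ± 741 normalised counts in LPS and 1103 ± 820 in saline libraries at P11 without library 2, against 8831 ± 3006 and 7529 ± 908 at P10. The days did not overlap, and the log2 differences were -3.13 and -3.01, or -1.59 and -1.78 under scaling by total count. The other 3 relatives, Wisp1, Wisp2 and Wisp3, had group means of at most 46.1 and overlapped between days.

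Ctgf is also a target of TGF-beta signalling and of the actin-regulated factor SRF, so these lists were set beside it. Of 14 TGF-beta genes listed, 12 were measured. In LPS dams 6 were higher without overlap, where 23.5% of all genes were, and in saline dams without library 2 there were 9, where 24.9% were. None was lower, against 18.3% and 20.2% of all genes. Tgif1, a SMAD corepressor, averaged 4978 ± 614 in LPS and 5028 ± 686 in saline libraries at P11, against 567 ± 117 and 400.5 ± 69.7 at P10. Pmepa1, an inhibitor of SMAD signalling, differed by 2.16 in LPS dams and by 1.39 in saline dams without library 2.

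Of 14 SRF-related genes listed, 10 were measured. In LPS dams 6 were higher at P11 without overlap, where 23.5% of all genes were, and in saline dams without library 2 there were 7, where 24.9% were. None was lower, against 18.3% and 20.2% of all genes. The medians were 2.22 and 1.86, beside 0.10 and 0.07 over all genes. Flna, which encodes the actin cross-linker filamin A, averaged 5884 ± 1774 in LPS and 4855 ± 1178 in saline libraries at P11, against 161 ± 64.9 and 155 ± 44.4 at P10. Zyx and Vcl, genes of the focal adhesion proteins zyxin and vinculin, differed by 4.02 and 3.54 in LPS dams and by 3.41 and 3.88 in saline dams.

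Markers of several cell types moved with the days in the same libraries, and their part in the results was not tested. In bulk RNA, more cells of a type and more RNA per cell cannot be told apart. The summed normalised counts of 6 luminal markers were 144904 to 173768 in LPS and 133645 to 163434 in saline libraries at P11 without library 2, against 80480 to 93929 and 76148 to 96659 at P10. Of these, 5 were higher at P11 and Elf5 was lower, with a mean of 11104 in LPS and 9615 in saline libraries at P11 against 55880 and 58213 at P10. The sum of 7 myoepithelial markers was 7781 to 11691 and 10056 to 12892 at P11, against 958 to 1957 and 1019 to 1629 at P10. Acta2, smooth muscle actin, made up nearly all of that sum, with a mean of 9509 in LPS and 11476 in saline libraries at P11. The basal markers Krt5 and Tp63 had means of at most 49.3 in any group, and Oxtr was at 0 in all LPS libraries of P10. Krt14 was higher at P11, with means of 328 in LPS and 215 in saline libraries without library 2, against 10.95 and 5.79 at P10. On the same basis Myh11 averaged 64.2 and 54.1 against 27.96 and 17.01, and Oxtr 9.19 and 11.37 against 0 and 0.765. Tp63 went the other way, with 25.6 and 17.9 at P11 against 30.7 and 49.3 at P10.

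The P11 saline ranges that follow leave out library 2, whose sums were 118 for neutrophil, 962 for macrophage, 136 for keratinocyte, 30.5 for platelet, 2.26 for fibroblast and 66.1 for endothelial markers. For luminal and myoepithelial markers they were 79413 and 2375. Neutrophil markers (6 genes, with Mpo or Elane at 0 in some groups) summed to 5268 to 15316 in LPS and 8521 to 27253 in saline libraries at P11, against 61.0 to 623 and 45.8 to 193 at P10. Macrophage markers (6 genes, Cd163 at 0 in all P10 libraries) summed to 1043 to 9063 and 1658 to 40912 at P11, against 148 to 1478 and 208 to 530 at P10. Lyz2 made up most of that sum, with a mean of 4357 in LPS and 15519 in saline libraries at P11, against 476 and 287 at P10. Of the 6 macrophage markers, 1 was higher at P11 without overlap in both treatments, where 18.2% of all genes were. Adgre1 averaged 14.4 in LPS and 0.70 in saline libraries at P11, against 8.77 and 6.49 at P10. Keratinocyte markers (3 of 6 with a row, Krt1 at 0 throughout) summed to 1217 to 2463 and 1032 to 2425 at P11, against 67.4 to 144 and 88.9 to 141 at P10. Sbsn carried that sum, with means of 1759 and 1691 at P11 against 22.3 and 31.3 at P10, while Krt10 averaged 83.5 and 54.0 at P11 against 84.2 and 83.7 at P10. Platelet markers (3 of 4 with a row) summed to 175 to 446 and 241 to 701 at P11, against 130 to 325 and 110 to 172 at P10. Markers of fibroblasts were low, with higher sums at P11 than at P10 in both treatments. Of 6, 5 had a row, Dcn and Lum were at 0 in every library, and the sum was 26.7 to 60.5 and 28.3 to 103 at P11, against at most 5.79 and 6.74 at P10. Endothelial markers (5 genes, Cdh5 at 0 in all groups but P10 saline) summed to 61.1 to 181 and 52.5 to 106 at P11, against 39.0 to 132 and 34.0 to 144 at P10.

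Library 2 of P11 saline did not stand at the same place for all 8 genes. Lats2, Ctgf and Ankrd1 lay above the range of all 10 P10 libraries, Tead1 below it, and Amotl2, Yap1, Wwtr1 and Cyr61 inside it. Places were taken on the way from the saline P10 mean to the P11 mean of the other saline libraries (log2 scale). Ctgf in this library had covered 17.8%, Lats2 22.1%, Cyr61 10.3% and Ankrd1 64.7%. The place of Ankrd1 rests on few reads, at 10.3 normalised counts. Library 4 of the same group was lower, at 9.17, so library 2 did not stand apart for this gene. The median over all genes higher at P11 without overlap was 2.82%. Amotl2 was at -10.5% and Tead1 at -46.4%.

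LPS against saline was the comparison that took no part in the selection, and none of the 8 genes passed the threshold in it. At P11, 24 h after the injection, Ctgf averaged 11026 ± 4886 normalised counts (SD, n = 5) in LPS libraries, against 6652 ± 4555 (n = 5) in saline libraries or 8276 ± 3174 (n = 4) without library 2. The log2 difference was 1.39 ± 0.71 (SE) with all libraries (limma, adjusted p = 0.708) and 0.38 ± 0.29 without library 2 (limma, adjusted p = 0.689). None of the 8 passed, where 0.0856% of 14022 genes did, and 0.0642% without library 2. None had an unadjusted p under 0.05 in either fit. The wider genes gave no call either: none of the 64 in the 5 lists passed at P10, at P11 or in the difference of the effects.

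Library 2 set the direction of most of these differences at P11. With it 7 of 8 were positive, and without it 2 of 8 were (Ctgf and Ankrd1), with adjusted p from 0.566 to 0.884 (limma). Cyr61 differed by 0.72 with all libraries and by -0.30 ± 0.24 without library 2. Cyr61 ranged over 5660 to 6951 in the LPS group, against 6993 to 8192 in the saline group without library 2, so these groups did not overlap, as was so for 1.18% of all genes in that direction. Amotl2 differed by 0.45 with all libraries and by -0.42 ± 0.24 without library 2, with means of 4366 ± 1139 in LPS and 5764 ± 637 in saline libraries. The 95% interval without library 2 was -0.79 to 0.20 for Cyr61, -0.93 to 0.09 for Amotl2 and -0.23 to 0.98 for Ctgf.

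The authors' deposited table for P11 listed Cyr61 at -0.286 (log2, SE 0.117, DESeq2 unadjusted p = 0.0148, adjusted p = 0.488) and Amotl2 at -0.387 (SE 0.195, unadjusted p = 0.0467, adjusted p = 0.628). In the authors' deposited table these signs are those of the deposited values without library 2. That table holds only genes with an unadjusted p under 0.05, and no other of the 8 was in it. The authors' deposited table for P10 listed none of them.

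**Figure D4:**
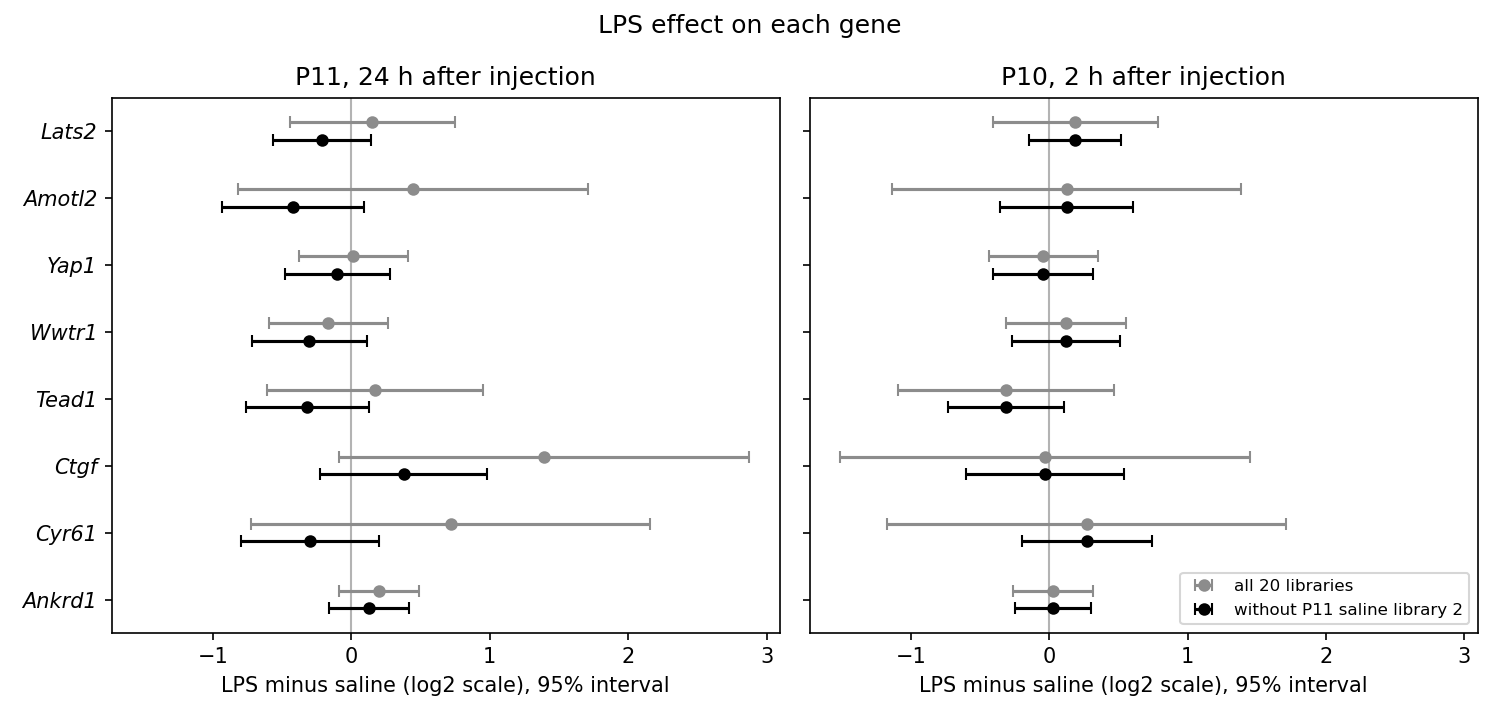
LPS minus saline on the log2 scale for each of the 8 genes at P11 (left) and P10 (right), as the limma estimate with its 95% interval, in grey with all 20 libraries and in black without library 2 of P11 saline. All intervals span 0, and at P11 the grey and black points of Lats2, Amotl2, Yap1, Tead1 and Cyr61 lie on opposite sides of it.

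At P10, 2 h after the injection, the differences ran from -0.31 (Tead1) to 0.27 (Cyr61), 5 positive and 3 negative, and none of the 8 passed (limma, adjusted p of 1 with all libraries), as was so for all genes, of which 0% passed. The authors' deposited table for P10 holds 48 genes with a DESeq2 adjusted p under 0.05, and that for P11 holds 19, none of them among the 8. Ctgf averaged 41.8 ± 30.5 normalised counts in LPS and 40.0 ± 13.3 in saline libraries, and differed by -0.03, the 95% interval being -0.60 to 0.54 in the fit without library 2. An unadjusted p under 0.05 at P10 was reached by 622 genes, or 1045 in the fit without library 2, none of them among the 8. Lats2 averaged 195 ± 14.2 in LPS and 165 ± 40.5 in saline libraries, and differed by 0.19, the interval being -0.14 to 0.52.

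No difference of the LPS effect between days was detected for any of the 8. The difference of the effects, P11 minus P10, was 1.42 for Ctgf with all libraries and 0.41 ± 0.40 without library 2, and for Cyr61 it was 0.44 and -0.57 ± 0.33. None passed (limma, adjusted p of at least 0.968 with all libraries and 0.655 without library 2), where 0.0357% and 0.0285% of all genes did.

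Within groups the 8 genes varied together only weakly. Correlations were taken over deviations from the group means in the 19 libraries without library 2. Genes of the same library share its normalisation and depth, and the correlations are descriptions. Over the 28 pairs the median r was 0.15, with 20 positive and a range from -0.50 (Wwtr1 with Ankrd1) to 0.57 (Wwtr1 with Cyr61). Ctgf correlated at 0.48 with Cyr61, 0.44 with Lats2, 0.27 with Tead1, 0.24 with Yap1, 0.14 with Wwtr1 and -0.28 with Amotl2.

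Among 9856 genes with a mean at least 1 above the lowest value, the 5 with the deviations most like those of Ctgf were Krt75 (r = 0.89), Lima1 (0.88), Krt17 (0.86), Dcbld2 (0.82) and Cald1 (0.81). Krt75 and Krt17 encode keratins, Lima1 and Cald1 encode the actin-binding proteins EPLIN and caldesmon, and Dcbld2 encodes a membrane receptor. Cyr61 ranked at place 465. Krt75 averaged 1147 in LPS and 1230 in saline libraries at P11 without library 2, against 13.1 and 4.75 at P10, and library 2 had 4.59. Krt75 was thus higher at P11, as Ctgf was, while its likeness within groups is what it was picked by. Its P10 values were 0 to 40.2 in LPS and 0.774 to 9.03 in saline libraries, so its deviations there rest on few reads. Krt17 averaged 6128 and 7158 at P11, against 34.4 and 36.8 at P10. With library 2 included, the r with Ctgf was 0.94 for Cyr61, 0.98 for Krt75 and 0.82 for Amotl2, the last having the opposite sign without it.

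**Figure D5:**
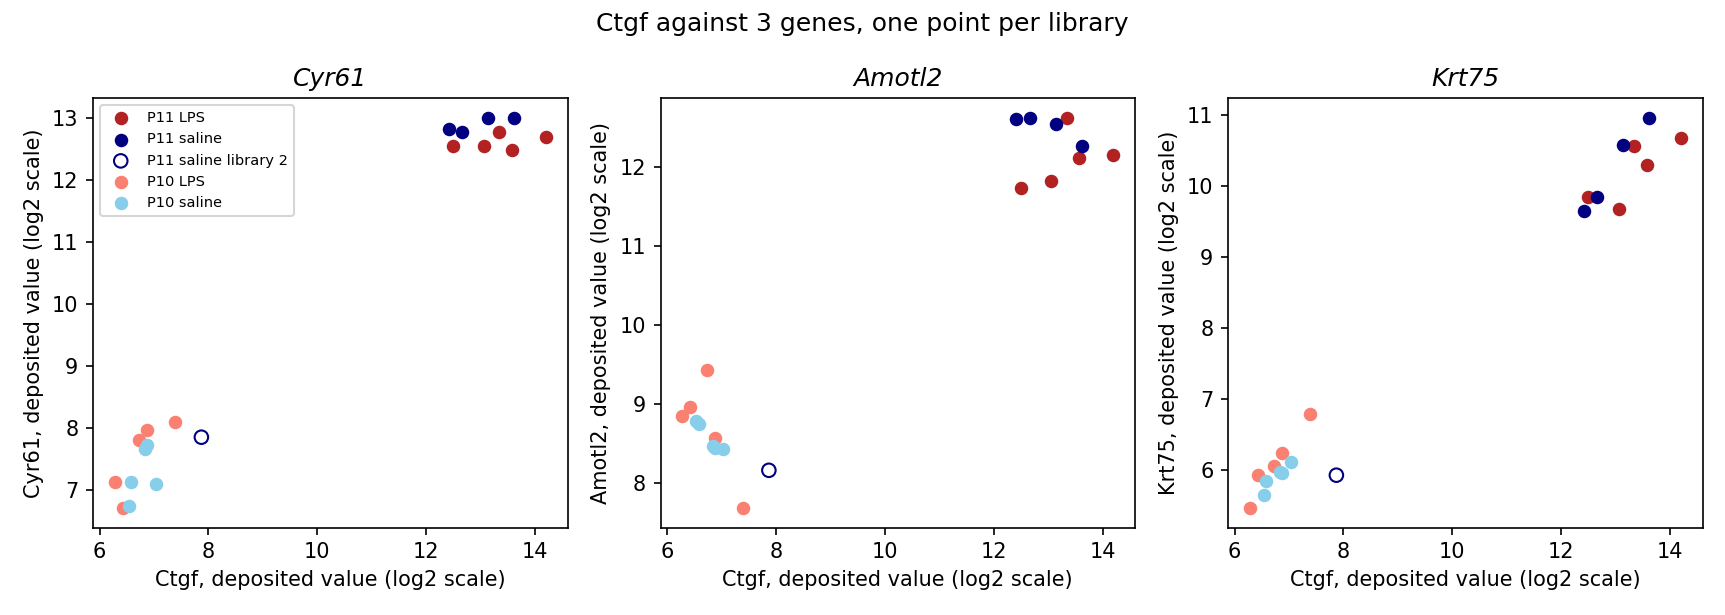
Deposited log2-scale value of Ctgf (horizontal) against that of Cyr61, Amotl2 and Krt75 (vertical), 1 point per library, coloured by group, with library 2 of P11 saline as an open circle. The P11 libraries form a cluster at high Ctgf, and within the clusters Krt75 follows Ctgf (r = 0.89 over 19 libraries) while Amotl2 does not (-0.28). Krt75 was picked for having the highest r, and its P10 values rest on few reads.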

How the data were processed

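RNA of the milk fat layer was sequenced in 20 libraries, 5 per group. The authors deposited log2 values for 16748 genes, named rlog, which have the form of a variance-stabilised scale with 1 lowest value of 5.46 holding 30.4% of entries. DESeq2 and the assembly rn6 are named in the submitters' processing notes. Which aligner, counting tool and annotation served is not given in the sources used here. For each day the authors also deposited a table of genes with an unadjusted p-value under 0.05 that holds, per the file headers, a base mean, a log2 fold change with its standard error, a test statistic (a score) and raw and adjusted p-values.

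The transformation was inverted to normalised counts, with an error on the log2 scale of at most 8.9e-16. Division by the apparent value of a read left 64.2% to 97.9% of values under 10 within 0.05 of a whole number, where chance gives 10%, so counts were not recovered and no count test was run. Precision is the spread between libraries, given as SD for counts and SE for log2 differences. A single model with 4 groups was fitted with limma 3.58.1 (R 4.3.3, mean-variance trend) to 14022 genes, leaving out 2726 at the lowest value in every library, with two-sided Benjamini-Hochberg adjusted p-values over all of them and a threshold of 0.05. It was tested on simulated data. A fold change on this scale understates that of low genes.

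The labels describe 5 biological replicates per group. Some dams were milked on both days, which no model could include. The genes and lists were chosen with earlier results of these data known. Named genes are the 10 of the list, the 3 per wider list with the largest difference each way between days, any in such a list passing an LPS comparison, and the 5 most like Ctgf. A gene that this rule named is not reported here. Groups that do not overlap have every library of 1 above every library of the other. Gene symbols were matched to RefSeq synonyms, and 25 symbols turned into dates were restored by identifier. Promoter windows and motifs were read from RefSeq (GRCr8) with Python 3.11.15. The alternatives were leaving out each library, other scalings, filters, pseudocount of 1, no trend, and only the compared libraries.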

Additional observations from a re-analysis of the deposited data

Results flagged for a closer look

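A library was marked where its gap to the nearest of its group exceeded 0.71 of the group's range, Dixon's limit for 5 samples, which chance alone gives in about 1 of 20 groups. Of 32 groups (8 genes in 4 groups), 6 were marked. In 4 of them library 2 of P11 saline was the lowest. Its deposited log2-scale values were 7.87 for Ctgf, 7.85 for Cyr61, 8.16 for Amotl2 and 7.82 for Tead1, or 154, 151, 205 and 146 normalised counts. The other 2 concern Ankrd1 at P10, where library 3 was the highest with a value of 5.78 in LPS and 5.64 in saline libraries and the other 4 of each group were at the lowest value of the table. These stand for 2.17 and 0.665 normalised counts, of the order of 1 read.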

How the results depend on the processing

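No paired analysis was possible because the value columns carry no dam numbers. The settings were those listed with the processing; scaling by total count, and the other scalings or only the compared libraries together with leaving out library 2, were added after seeing the data. None of the 8 genes passed in any LPS comparison under any of 31 to 33 settings (lowest limma adjusted p 0.373 at P10, 0.537 at P11 and 0.529 for the difference of effects). The 16 differences between days kept their sign under all 27 or 28 settings tried. The number of genes higher at P11 without overlap was 4 of 8 in saline dams, where 7.12% of all genes were. It was 4 to 7 when single libraries were left out, the 7 being without library 2, where 24.9% of all genes were. In LPS dams it was 6 of 8, where 23.5% of all genes were, and 6 to 8 over all settings. The 8 came from scaling by total count, where the median of all genes also moved up, to 1.06. The share of all genes under that scaling is not given here.

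Of 24 LPS differences, 15 turned sign when 1 library was left out, 9 of them without library 2 of P11 saline. At P10 the ranges (log2) were -0.057 to 0.38 for Amotl2, -0.14 to 0.040 for Yap1, -0.0020 to 0.24 for Wwtr1, -0.19 to 0.086 for Ctgf and -0.035 to 0.064 for Ankrd1. At P11 they were -0.21 to 0.34 for Lats2, -0.42 to 0.69 for Amotl2, -0.10 to 0.16 for Yap1, -0.32 to 0.34 for Tead1 and -0.30 to 0.995 for Cyr61. For the difference of effects they were -0.40 to 0.15 for Lats2, -0.55 to 0.57 for Amotl2, -0.058 to 0.21 for Yap1, -0.0039 to 0.65 for Tead1 and -0.57 to 0.72 for Cyr61. Scaling by total count turned Lats2 (-0.035), Amotl2 (-0.12) and Wwtr1 (-0.19) at P10, Wwtr1 at P11 (0.031), and Lats2 (0.39) and Wwtr1 (0.22) in the difference of effects; the cause was not tested. Depth is known only approximately, and Ankrd1 at P10 rests on single reads.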
